A study of Mus musculus with 6 samples.

Results

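Amino acid transporters are the carriers that bring amino acids into the cell or move them between the cytosol and the lysosome, and most of the plasma membrane carriers belong to a few solute carrier (Slc) families. They were examined here in mouse muscle stem cells (MuSCs) through the genes of the families Slc1, Slc3, Slc6, Slc7, Slc36, Slc38 and Slc43. Members were taken by symbol alone, as every listed gene that carries 1 of these family names followed by a number, and 41 of 18943 genes met this rule. Of these, 40 encode members of the carrier families, whereas Slc7a6os, which lies next to Slc7a6 on the opposite strand, has the name but not the function of a carrier. A mean value of at least 5 over all libraries was reached by 35 members, and these were tested among 13921 genes.

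Sequenced were 6 RNA libraries of MuSCs sorted by FACS from wild-type C57BL/6 mice that were 8 weeks old. The cells were kept in culture for 5 days with DMSO, the solvent control, with endothelin-3 (ET-3) or with neurotensin (NT), and each group had 2 libraries. ET-3 and NT are peptides that act on G-protein-coupled receptors, and the sample labels give 100 nM for each, whereas the methods of the paper give higher concentrations. The comparisons ask which transcripts differ after exposure to each peptide, and which differ between the peptides. The paper describes its sequenced samples as biological triplicates, and the text of the series also speaks of triplicates. Analysed here were 2 libraries per group, and the labels do not say whether these came from separate mice or cultures, so the p-values measure the spread between these libraries, which may be technical.

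Heterodimeric carriers pair a heavy chain of family Slc3, which brings the complex to the cell surface, with a light chain of family Slc7, which carries the amino acids. Slc3a2 (CD98) serves as heavy chain for the leucine carrier Slc7a5 (LAT1) and for the cystine and glutamate exchanger Slc7a11 (xCT), whose imported cystine feeds glutathione synthesis. Slc1 and Slc38 carriers take up glutamate, glutamine and small neutral amino acids with sodium, and Slc6 carriers take up neutral amino acids, taurine, creatine and transmitters. In muscle cells, leucine and arginine that enter through such carriers are sensed by the mTORC1 pathway.

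The values are read counts that the authors scaled by 1 factor per library and rounded, so they are given here as values and not as raw counts. They summed to 4214458 to 4600575 per library, which corresponded to 3628952 to 5396233 reads after division by the estimated factors, and 17057 to 17678 genes had a value above 0. The MuSC and myoblast markers summed to 9569 and 10484 in the DMSO libraries, 9519 and 9229 under ET-3, and 8316 and 7963 under NT. Of 9 tested markers in this list, 0 rose at least 2-fold, and 2 fell with ET-3 and 1 with NT. Over all genes, 6.62% rose and 14.9% fell with ET-3, and 7.3% and 13.2% did so with NT. These shares also stand beside the marker lists that follow. By adjusted p alone, 3 markers were higher and 4 lower with ET-3 (30.6% and 33.2% of all genes). With NT, 3 were higher and 5 lower (29.7% and 32.5% of all genes). The median log2 fold change was -0.08 with ET-3 and -0.26 with NT. In this list Pax7 was higher by 0.86 and 0.76 on the log2 scale (adjusted p = 9.75e-06 and 2.48e-05), and Cdh15 fell by 1.80 and 1.82. The quiescence marker Calcr did not exceed 3 in any library. The 8 markers of differentiating muscle summed to 13140 and 14616 for DMSO, to 452 and 481 for ET-3 and to 460 and 335 for NT, and all 8 fell under each peptide. The 6 listed markers of smooth muscle and pericytes also had a lower sum (3 of 4 tested fell), between 748 and 915 in the treated libraries and 2980 and 3372 with DMSO. Endothelial marker sums were 22 to 37 with DMSO and 101 to 124 in the treated libraries, where 2 of 4 tested markers rose with ET-3 and 3 with NT, and Tek made up most of the difference (2 and 1, then 42 to 70). The markers of fibroadipogenic cells summed to 1624 and 1788 with DMSO and to 992 to 1151 with the peptides. Of 4 tested, Col1a1 fell and Col3a1 was lower by 0.65 and 0.55, whereas Ly6a was higher by 0.83 and 0.98, and Pdgfra was higher by 0.70 with NT (0.18 with ET-3, adjusted p = 0.567). The 2 listed macrophage markers summed to 21 to 45 in all libraries. The smooth muscle marker Myh11 did not exceed 4 and the endothelial Cdh5 did not exceed 5 in any library. The part that these shifts had in the results for the transporters was not tested, and in bulk samples fewer cells of a type and less RNA per cell cannot be told apart. Across all genes, the ET-3 pair and the NT pair differed by no more than counting error (mean chi-square per gene of 0.868 and 0.953), whereas the DMSO pair differed by more (1.49). Over the members, these means were 1.48, 1.82 and 7.97. Among members with a mean of at least 100, Slc7a11 (515 and 210) and Slc7a3 (218 and 113) differed most between the DMSO libraries. Each pair was kept as 2 libraries, and the counts with each treated pair averaged to 1 sample are given beside the main counts.

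Promoter sequence was read from RefSeq (GRCm38.p6) for 29 of the 41 members, as the 250 bases before each of 47 annotated starts, including those of 6 of the 10 members that rose or fell. Shown are the window of Slc7a11, which rose, that of Slc7a7, a light chain with lower values under both peptides, and windows of Slc6a13 and Slc6a19, which fell to few reads or 0. For genes with several starts a window that held a motif was chosen, which was 1 of 3 for Slc6a13 (the others lack CAGCTG) and 1 of 5 for Slc7a7 (2 hold TGATGNAA). Capitals mark TGATGNAA, the core of the amino acid response element to which ATF4 and C/EBP proteins bind, and CAGCTG, the E-box of myogenic factors, each on either strand.
Slc7a11: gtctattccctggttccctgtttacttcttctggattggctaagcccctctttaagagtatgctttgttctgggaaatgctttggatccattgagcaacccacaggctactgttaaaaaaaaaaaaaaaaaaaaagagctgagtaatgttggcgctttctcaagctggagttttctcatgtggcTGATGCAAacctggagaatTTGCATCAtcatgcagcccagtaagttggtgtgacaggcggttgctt
Slc7a7: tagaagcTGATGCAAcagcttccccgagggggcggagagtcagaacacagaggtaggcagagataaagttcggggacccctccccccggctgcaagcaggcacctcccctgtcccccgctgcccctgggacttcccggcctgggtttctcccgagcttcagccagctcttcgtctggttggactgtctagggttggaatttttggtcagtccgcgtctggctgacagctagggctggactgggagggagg
Slc6a13: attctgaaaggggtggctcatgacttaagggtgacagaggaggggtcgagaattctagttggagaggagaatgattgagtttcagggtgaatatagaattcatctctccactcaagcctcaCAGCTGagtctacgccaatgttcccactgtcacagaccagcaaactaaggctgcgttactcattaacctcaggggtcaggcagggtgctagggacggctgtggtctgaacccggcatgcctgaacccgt
Slc6a19: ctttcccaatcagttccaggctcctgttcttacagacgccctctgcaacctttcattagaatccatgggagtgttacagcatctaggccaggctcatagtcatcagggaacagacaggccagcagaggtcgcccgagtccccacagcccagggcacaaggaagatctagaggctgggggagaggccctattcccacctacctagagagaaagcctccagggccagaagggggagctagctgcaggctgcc
These windows lie at chr3:50443614-50443863 (minus strand), chr14:54417703-54417952 (minus strand), chr6:121300490-121300739 (plus strand) and chr13:73692637-73692886 (minus strand). All 4 precede starts that are inside the annotated span of the gene. The Slc6a19 and Slc6a13 windows lie wholly within that span and are internal sequence of the gene. The Slc6a19 start is at 73692636, and the minus-strand gene begins upstream at 73704865. The Slc6a13 start is at 121300740, and the gene begins at 121300227. Slc7a11 held the core at 2 places, TGATGCAA at 66 to 59 bases and the opposite-strand form TTGCATCA at 47 to 40 bases before the start. In the Slc7a7 window TGATGCAA was 243 to 236 bases before the start, and another Slc7a7 start had TGATGAAA at 141 to 134 bases. Slc7a11 and Slc7a7 were 2 of the 29 members with this core, which was in 3 of 47 windows (6.38%) and in 1133 of all 32841 windows (3.45%). CAGCTG was in 7 of 47 windows (14.9%), including the Slc6a13 window at 129 to 124 bases before the start, and in 4270 of all windows (13.0%). TGACNNNGC, the core of the antioxidant response element, was in 7 of 47 windows (14.9%) against 3338 of all windows (10.2%), and none of the windows was that of Slc7a11. A match describes the letters of these windows and not a bound site.

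The highest levels per kilobase of exon belonged to carriers for leucine, taurine and glutamine and to the shared heavy chain. The mean over the 6 libraries was 443.2 per kilobase for Slc7a5, 346.0 for the taurine carrier Slc6a6, 270.6 for Slc3a2, 247.7 for the glutamine carrier Slc1a5 and 204.0 for the glutamine carrier Slc38a2. The creatine carrier Slc6a8 followed with 189.9 and the arginine and lysine carrier Slc7a1 with 137.1. Slc6a6 had values of 2942 and 3272 in the controls, 3079 and 2977 after ET-3, and 2771 and 2517 after NT. The NT libraries were the lowest, with a log2 fold change against DMSO of -0.23 (adjusted p = 0.00789), whereas ET-3 overlapped DMSO (-0.04, adjusted p = 0.639). Together the members held 0.394% and 0.383% of the library total in the controls. This share was 0.471% and 0.464% in the ET-3 libraries, and 0.453% and 0.450% in the NT libraries. Both treated groups thus lay above DMSO by share, but their library totals were lower (4214458 to 4323896, against 4569503 and 4600575). Member values summed to 18018 and 17595 in the controls. Their sums were 20357 and 19943 after ET-3, whereas NT gave 19305 and 18972. Slc7a11 alone rose from 515 and 210 to between 1467 and 1635. It made up most of the higher sum under NT and a smaller part under ET-3.

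**Figure D1:**
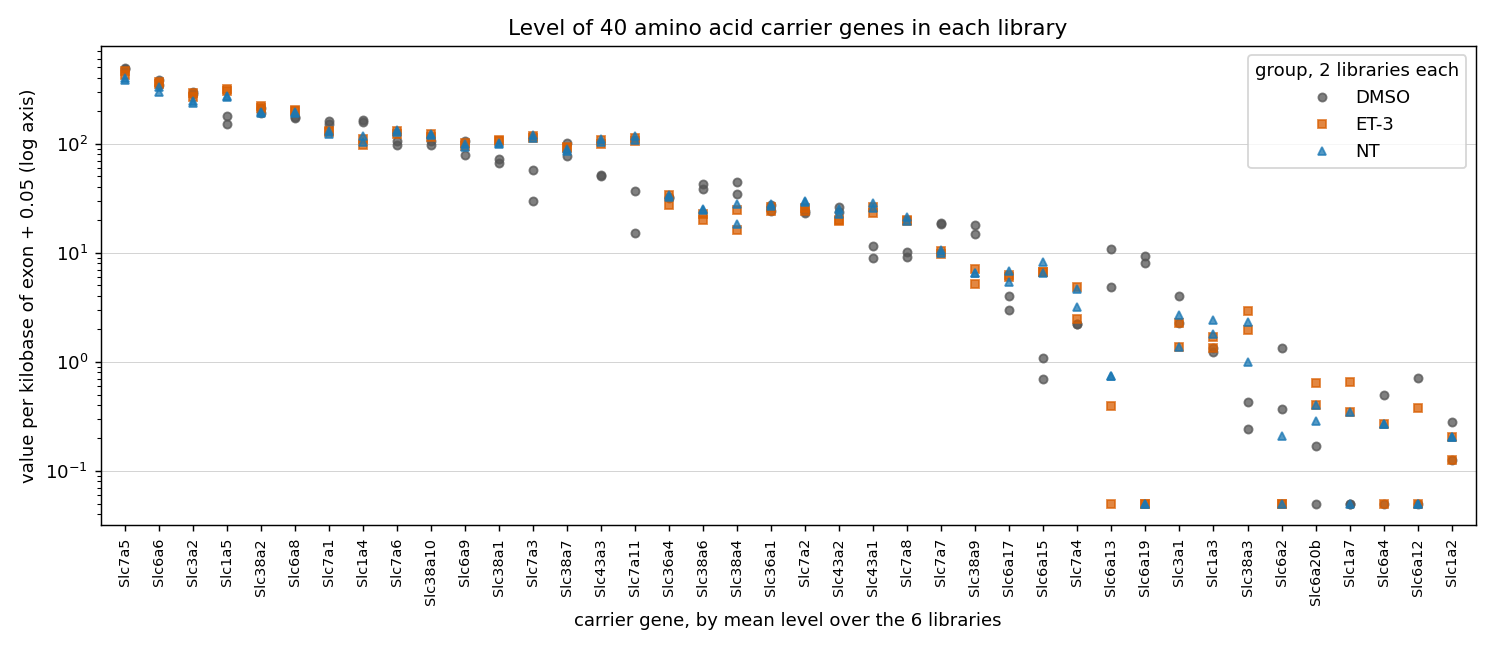
Value per kilobase of exon of the 40 carrier genes (log axis, 0.05 added so that values of 0 can be drawn) in each of the 6 libraries, ordered by their mean. Slc7a5 is highest at a mean of 443.2 per kilobase, and the treated libraries lie apart from DMSO for Slc7a11 in the middle of the order and for Slc6a19 and Slc6a13 towards its lower end.

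Under each peptide, 7 members rose and 3 fell. A member was counted when its adjusted p (limma, Benjamini-Hochberg over all 13921 genes) was 0.05 or lower and its value had moved at least 2-fold, that is by 1 on the log2 scale. The same rule took 6.62% of all tested genes as higher and 14.9% as lower in the ET-3 comparison, and 7.3% as higher and 13.2% as lower in the NT comparison. The 7 higher members were 20% of the 35 tested, and the 3 lower members were 8.57%. Slc7a11, Slc7a3, Slc7a8, Slc43a1, Slc43a3, Slc6a15 and Slc38a3 were higher in both comparisons, and Slc38a9, Slc6a13 and Slc6a19 were lower in both, but these comparisons share the DMSO libraries. Slc6a13 and Slc6a19 reached the minimum mean of 5 only through the DMSO libraries, and Slc38a3 only through the treated libraries. For these genes the filter thus favored the direction of the call. By adjusted p alone, 14 members were higher and 10 lower with ET-3 (30.6% and 33.2% of all genes), and 14 were higher and 11 lower with NT (29.7% and 32.5%). The median log2 fold change was 0.10 (ET-3) and 0.09 (NT) over the members and -0.01 in both comparisons over all genes. The median size of the change, regardless of its sign, was 0.62 and 0.55 over the members and 0.43 and 0.41 over all genes. With library totals as the scale, the median over all genes moved from -0.01 to 0.10 for NT, and the same 10 members passed in each comparison.

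Fewer members passed when each treated pair was averaged to 1 sample. In that fit 3 rose and 2 fell with ET-3, and 2 rose and 2 fell with NT. Over all genes, 3.33% rose and 11.9% fell with ET-3 in that fit, and 3.4% and 10.4% did so with NT. By adjusted p alone, 4 members were higher and 5 lower with ET-3 (10.5% and 18.2% of all genes), and 3 were higher and 3 lower with NT (9.16% and 15.7%). Slc43a3, Slc6a15, Slc38a9 and Slc6a19 passed in both comparisons, and Slc7a8 passed with ET-3 but had an adjusted p of 0.0502 with NT. The adjusted p was then 0.150 and 0.149 for Slc7a11, 0.170 and 0.172 for Slc7a3, 0.0617 and 0.0591 for Slc43a1, 0.0566 and 0.0764 for Slc38a3, and 0.0626 and 0.0926 for Slc6a13, with ET-3 and NT respectively.

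**Figure D2:**
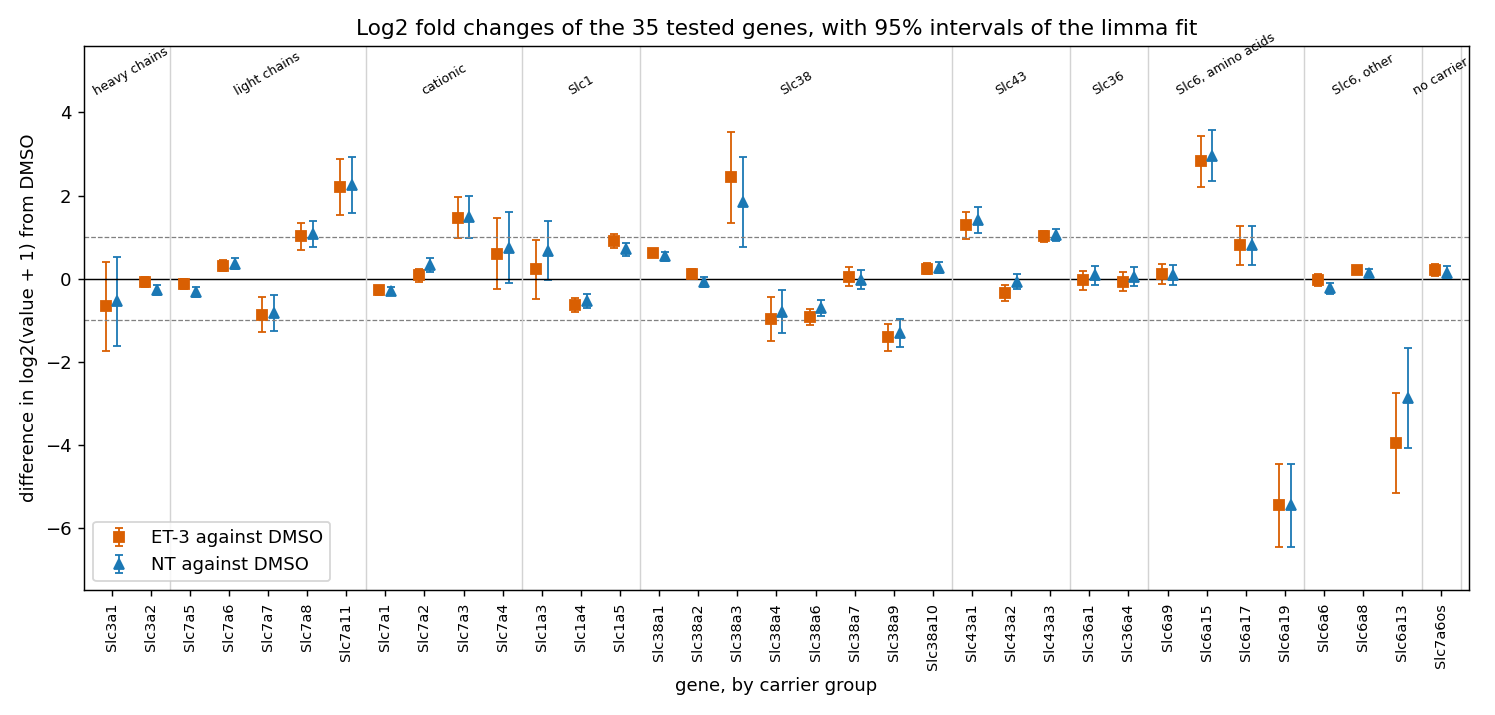
Difference in log2(value + 1) from DMSO for the 35 tested genes by carrier group, with 95% intervals of the limma fit (2 libraries per group) and dashed lines at 2-fold. Most genes lie within the dashed lines, Slc6a15, Slc38a3 and Slc7a11 stand highest, and Slc6a19 and Slc6a13 are lowest under both peptides.

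Among the heterodimeric carriers, the light chains Slc7a11 and Slc7a8 rose, whereas the other tested light chains and the heavy chain Slc3a2 did not reach 2-fold. Slc3a2 had values of 1008 and 1055 in the DMSO libraries, 1018 and 940 under ET-3, and 872 and 836 under NT. Both NT libraries were below all others, with a log2 fold change of -0.27 (SE 0.05, adjusted p = 0.00125), and ET-3 overlapped DMSO (-0.08, 95% interval -0.19 to 0.04). The other heavy chain, Slc3a1, which pairs with the cystine carrier of kidney, was near the minimum mean of 5, with values of 3 to 9. Slc7a5 had 1842 and 1789 for DMSO, 1731 and 1590 for ET-3, and 1487 and 1421 for NT, and the 3 groups did not overlap. Its log2 fold change was -0.13 (adjusted p = 0.0464) with ET-3 and -0.32 (adjusted p = 0.000343) with NT.

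Slc7a11 (chr3:49892526-50443614, minus strand, GRCm38) rose most among the light chains. Its values were 515 and 210 in the controls, 1467 and 1575 after ET-3, and 1518 and 1635 after NT. All treated libraries were above both DMSO libraries, but the DMSO libraries differed from each other by 2.45-fold. The log2 fold change was 2.20 (SE 0.30, adjusted p = 0.000105) with ET-3 and 2.26 (SE 0.30, adjusted p = 9.34e-05) with NT, or 4.61-fold and 4.78-fold. Against the higher DMSO library alone it was 1.56 and 1.61, and against the lower alone 2.85 and 2.90. Among 8891 genes with a mean of at least 100, the difference of Slc7a11 between the DMSO libraries ranked 4, and that of the arginine and lysine carrier Slc7a3 ranked 12, at 1.93-fold. The median size of this difference over those genes was 0.08 on the log2 scale.

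**Figure D3:**
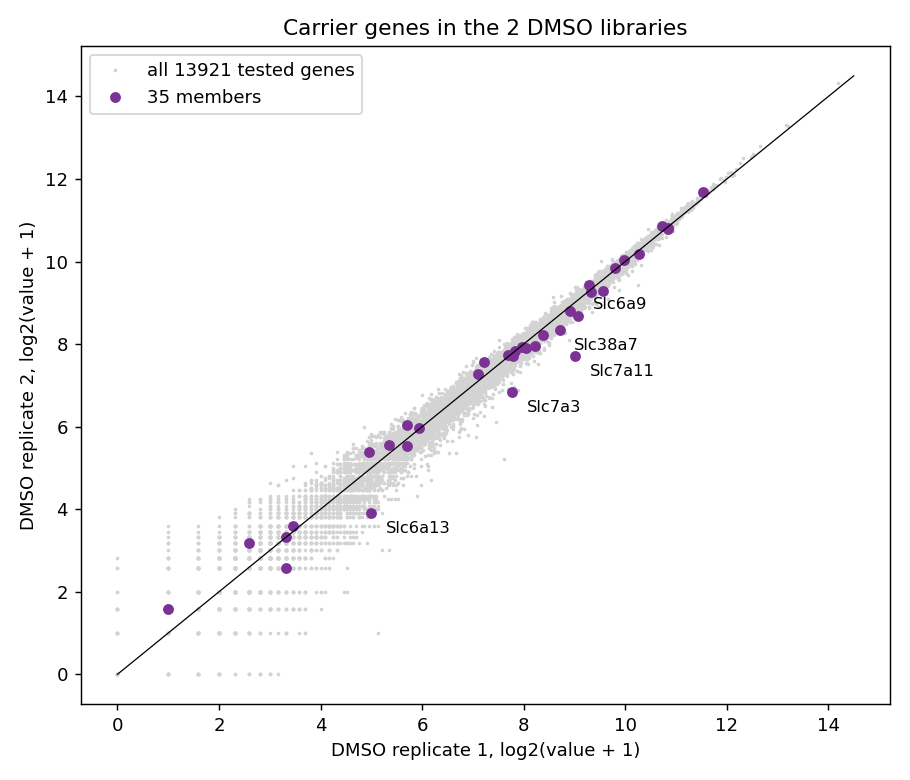
Log2(value + 1) of all 13921 tested genes (grey) and the 35 members (purple) in the DMSO libraries, replicate 1 on the horizontal and replicate 2 on the vertical axis, with the line of equal values. Most members lie near the line, whereas Slc7a11 (515 and 210), Slc7a3 (218 and 113) and the low-level Slc6a13 (31 and 14) lie below it.

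Slc7a8 (LAT2; chr14:54722209-54781946), an exchanger of neutral amino acids, had values of 51 and 45 in the DMSO libraries, 99 and 97 under ET-3, and 97 and 107 under NT. The treated libraries lay at about the same level, above both controls, with log2 fold changes of 1.02 (SE 0.14, adjusted p = 0.000138) and 1.07 (SE 0.14, adjusted p = 9.91e-05). Both values were near the 2-fold limit and went to 0.93 and 0.98 without DMSO replicate 2. Slc7a7, which exports cationic amino acids in exchange for neutral ones, lies 304.4 kb from Slc7a8 with 16 listed genes between them, and went the other way. It had 60 and 62 for DMSO, 32 and 34 for ET-3, and 33 and 35 for NT, so the treated libraries did not overlap the controls. The log2 fold changes of -0.87 (adjusted p = 0.00259) and -0.83 (adjusted p = 0.00363) did not reach 2-fold, and 7.0% of its exonic bases overlap Oxa1l on the other strand. The related light chain Slc7a6 had 480 and 446 in the controls, 560 and 592 after ET-3, and 605 and 587 after NT. It was higher in all treated libraries by 0.31 (adjusted p = 0.000721) and 0.36 (adjusted p = 0.000288) on the log2 scale.

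Of the cationic amino acid carriers, which bring arginine and lysine into the cell, Slc7a3 rose and the more abundant Slc7a1 did not. Slc7a3 (chrX:101079210-101086020) had values of 218 and 113 in the DMSO libraries, 449 and 424 under ET-3, and 423 and 458 under NT. The treated libraries did not overlap the controls, and the log2 fold change was 1.47 (SE 0.22, adjusted p = 0.000244) with ET-3 and 1.48 (SE 0.22, adjusted p = 0.000242) with NT. Without DMSO replicate 2, the lower of the controls, it was 0.998 and 1.01, which ended the 2-fold call for ET-3. Slc7a1 went from 1840 and 1760 with DMSO to between 1426 and 1498 in the treated libraries, with log2 fold changes of -0.28 (adjusted p = 0.000357) and -0.30 (adjusted p = 0.000238). Slc7a2 was higher with NT by adjusted p alone (log2 fold change 0.33, adjusted p = 0.00264; ET-3 0.08, adjusted p = 0.375), and its difference between NT and ET-3 was 0.26 (95% interval 0.09 to 0.42), which did not pass the adjustment. Slc7a4, for which no transport activity is established, was at 9 to 20 and did not pass in either comparison, although it did with ET-3 when ET-3 replicate 1 was left out (log2 fold change 1.07, adjusted p = 0.0464).

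In family Slc43, which includes sodium-independent carriers of large neutral amino acids, 2 of 3 genes rose. Slc43a1 (LAT3; chr2:84838850-84863594) had values of 51 and 65 for DMSO, 151 and 133 for ET-3, and 148 and 162 for NT. The treated libraries exceeded the controls at least 2-fold, with log2 fold changes of 1.28 (SE 0.14, adjusted p = 2.7e-05) and 1.41 (SE 0.14, adjusted p = 1.46e-05). Slc43a3, which was named for its sequence and is known to carry purine nucleobases rather than amino acids, lies 73.0 kb from Slc43a1 on chromosome 2. It had 227 and 229 in the controls, 443 and 481 after ET-3, and 488 and 461 after NT. Both controls were nearly equal and below all treated libraries, and the log2 fold changes were 1.01 (SE 0.06, adjusted p = 4.36e-07) and 1.05 (SE 0.06, adjusted p = 3.57e-07). Without ET-3 replicate 2 the ET-3 value was 0.96, just under 2-fold. The third gene, Slc43a2 (LAT4), had 262 and 239 in the DMSO libraries, 198 and 195 under ET-3, and 251 and 226 under NT. Its log2 fold changes were -0.35 (adjusted p = 0.00406) and -0.07 (adjusted p = 0.477).

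Slc38a9, the lysosomal carrier that signals arginine to mTORC1, fell, and Slc38a3, a glutamine carrier best known from liver and brain, rose from few reads. Slc38a9 (chr13:112660751-112738749) had values of 296 and 247 for DMSO, 86 and 118 for ET-3, and 109 and 107 for NT. The highest treated library was below the lower control, and the log2 fold change was -1.42 (SE 0.15, adjusted p = 1.83e-05) with ET-3 and -1.32 (SE 0.15, adjusted p = 3.26e-05) with NT. Slc38a3 (chr9:107650634-107669530) had 1 and 2 in the controls, 10 and 15 after ET-3, and 5 and 12 after NT. These correspond to 3 reads with DMSO against 22 and 21 with the peptides, a ratio per scaled library of 7.90 (exact 95% interval 2.37 to 41.2) for ET-3 and of 5.40 (1.61 to 28.3) for NT, which covers counting error only. The fitted log2 fold changes were 2.44 (adjusted p = 0.00144) and 1.85 (adjusted p = 0.00751), and the NT call was lost without DMSO replicate 1 (adjusted p = 0.0942) and without NT replicate 2 (adjusted p = 0.0872).

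The other Slc38 members did not reach 2-fold. Slc38a1, a glutamine carrier of the plasma membrane, went from 1234 and 1153 with DMSO to between 1714 and 1862 in the treated libraries, which did not overlap the controls. Its log2 fold change was 0.62 (adjusted p = 1.46e-06) with ET-3 and 0.53 (adjusted p = 4.67e-06) with NT. The adjacent Slc38a2, which is known to be induced by amino acid starvation, had values of 1677 to 1966 with overlap between groups, and its log2 fold changes were 0.11 (95% interval -0.01 to 0.23) and -0.07 (-0.19 to 0.04). Slc38a4, the next listed gene on chromosome 15, had 148 and 190 in the DMSO libraries, 69 and 105 under ET-3, and 119 and 78 under NT. The lowest control was above the highest treated library, and the log2 fold changes were -0.97 (SE 0.23, adjusted p = 0.00456) and -0.79 (SE 0.23, adjusted p = 0.0138). Slc38a6 was lower by a similar amount, with values of 333 and 297 for DMSO, 174 and 156 for ET-3, and 195 and 190 for NT, and log2 fold changes of -0.93 (adjusted p = 8.48e-06) and -0.71 (adjusted p = 6.32e-05). Slc38a10 was higher by 0.24 and 0.26 (adjusted p = 0.00463 and 0.00278), and the lysosomal glutamine carrier Slc38a7 did not pass (0.05 and -0.02).

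The neutral amino acid carriers Slc1a5 and Slc1a4 of family Slc1 moved in opposite directions, short of 2-fold. Slc1a5 had 752 and 629 in the controls, 1319 and 1259 after ET-3, and 1130 and 1114 after NT. ET-3 was highest, then NT, then DMSO, without overlap, and the log2 fold change was 0.90 (SE 0.07, adjusted p = 2.68e-06) with ET-3 and 0.71 (SE 0.07, adjusted p = 1.68e-05) with NT. Against DMSO replicate 2 alone the ET-3 value was 1.03. Slc1a4 had 641 and 615 with DMSO and 379 to 458 in the treated libraries, with log2 fold changes of -0.63 (adjusted p = 5.58e-05) and -0.54 (adjusted p = 0.000174). The glutamate carrier Slc1a3 was at 10 to 20 and did not pass, and the proton-coupled lysosomal carrier Slc36a1 and its relative Slc36a4 were at 135 to 156 and 178 to 221 without passing in either comparison.

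Family Slc6 held the member with the largest rise and those with the largest falls. Slc6a15, a sodium-coupled carrier of branched-chain amino acids and proline (chr10:103367783-103419377), had values of 5 and 8 in the DMSO libraries, 51 and 51 under ET-3, and 50 and 63 under NT. All treated libraries were at least 6-fold above both controls, and the log2 fold change was 2.82 (SE 0.27, adjusted p = 9.86e-06) with ET-3 and 2.96 (SE 0.27, adjusted p = 7.49e-06) with NT. Slc6a17, its closest relative among the members, had 30 and 41 for DMSO, 63 and 61 for ET-3, and 55 and 70 for NT. The treated libraries did not overlap the controls, with log2 fold changes of 0.80 (adjusted p = 0.00707) and 0.81 (adjusted p = 0.00725).

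Slc6a19, a neutral amino acid carrier of kidney and intestine (chr13:73679745-73704865), had values of 40 and 46 with DMSO and 0 in all 4 treated libraries. With a floor of 3 reads in a library, it was at least 12.0-fold lower with ET-3 and at least 16.8-fold lower with NT (adjusted p = 2.99e-06 and 3.19e-06). Slc6a13, a carrier of GABA and taurine (chr6:121300227-121337733), had 31 and 14 in the controls, 1 and 0 after ET-3, and 2 and 2 after NT. DMSO had 44 reads against 1 with ET-3, a ratio of 40.9 (exact 95% interval 6.96 to 1650), and against 5 with NT, a ratio of 11.4 (4.54 to 36.9), where the intervals cover counting error only. The adjusted p was 0.000107 with ET-3 and 0.000976 with NT. Slc6a19 and Slc6a13 were tested only because their DMSO values lifted the mean to the minimum of 5. Slc6a12, which lies 5.3 kb downstream of Slc6a13, was at 0 to 2. The creatine carrier Slc6a8 was higher by 0.22 and 0.15 on the log2 scale (adjusted p = 0.00127 and 0.0127). The glycine carrier Slc6a9 had values of 407 to 539 and did not pass (0.10 and 0.09), and 27.8% of its exonic bases overlap Ccdc24 on the opposite strand.

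**Figure D4:**
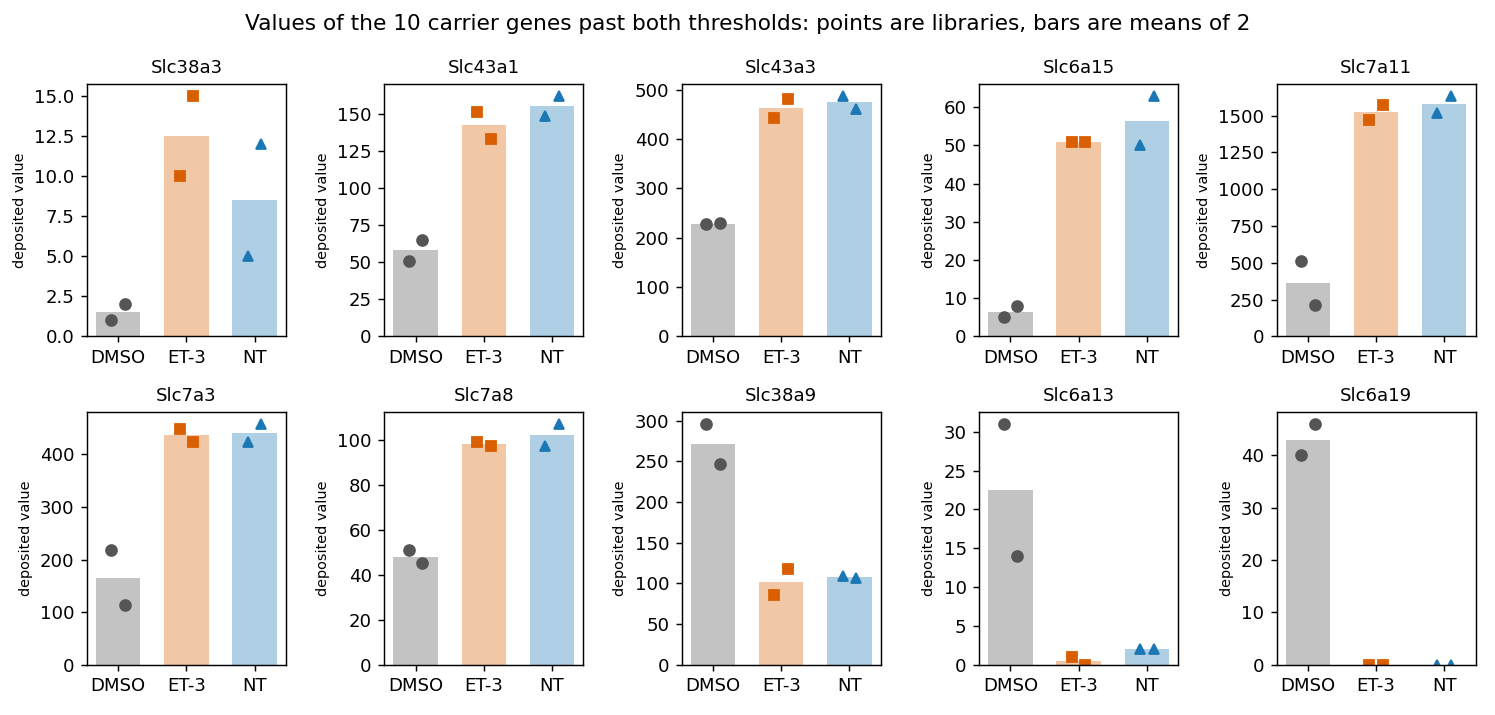
Values of the 10 members past both thresholds in each library (points) with the mean of 2 libraries (bars, from 0), by group, each panel with its own scale. In the 7 higher members all 4 treated points are above both DMSO points, and in the 3 lower members all are below, with Slc6a19 at 0 in every treated library.

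The remaining members were at few reads. Slc1a2 was at 1 to 3, Slc1a7 at 0 to 2, Slc6a4 at 0 to 2 and Slc6a20b at 0 to 5. Slc6a2, the noradrenaline carrier, had 2 and 8 in the DMSO libraries, 0 and 0 under ET-3, and 1 and 0 under NT. These members were under the minimum mean of 5. Without that minimum, ET-3 had 8 higher and 4 lower members, and the NT counts stayed at 7 and 3. Added with ET-3 were Slc6a20b (0 and 1 in the controls, 5 and 3 under ET-3, adjusted p = 0.0285) and Slc6a2 (adjusted p = 0.0273). Both rest on few reads. Over all genes, 1090 were then higher and 2683 lower with ET-3, against 922 and 2069 with the minimum. Slc7a6os had 242 to 291 and was higher by 0.20 with ET-3 (adjusted p = 0.0223) and 0.15 with NT (adjusted p = 0.0811). Exonic bases of Slc3a1 (26.5%), Slc6a20b (21.1%) and Slc7a4 (13.3%) also overlap a gene of the other strand. Smaller overlaps of this kind included those of Slc43a2 (9.18%), Slc7a7 (7.0%), Slc7a2 (6.95%) and Slc38a10 (5.72%). The labels name a library kit without strand and the paper one with strand, so the values of these genes and of Slc6a9 are uncertain.

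Between the peptides, 0 of 35 members passed with limma, also without a limit on the fold. Over all genes, 7 were higher with NT (0.0503%) and 4 lower (0.0287%), or 90 (0.647%) and 285 (2.05%) by adjusted p alone. At an unadjusted p under 0.05 there were 8 members, and the lowest adjusted p was 0.0777, for Slc7a5. Voom was applied to reads that were recovered by division of each value by its factor. With it, 5 members had an adjusted p of 0.05 or lower, and 0 reached 2-fold. The shares of all genes at this adjusted p and at the unadjusted p were not counted. These 5, Slc1a5, Slc38a2, Slc6a6, Slc3a2 and Slc7a5, were lower with NT than with ET-3 by 0.18 to 0.20 on the log2 scale in both fits. For Slc7a11 the NT minus ET-3 difference was 0.05 (95% interval -0.61 to 0.72), for Slc6a15 0.14 (-0.47 to 0.75), for Slc38a9 0.10 (-0.23 to 0.43) and for Slc43a3 0.04 (-0.10 to 0.18). The interval was widest for Slc6a13, at 1.08 (-0.11 to 2.28).

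Other genes of amino acid handling were taken from lists for the amino acid response, tRNA charging, mTORC1 sensing and further carriers. Of 27 tested genes known as targets or parts of the ATF4 response, 1 rose and 6 fell with ET-3, and 1 rose and 5 fell with NT. Over all genes, 6.62% rose and 14.9% fell with ET-3, and 7.3% and 13.2% did so with NT. By adjusted p alone, 9 were higher and 12 lower with ET-3 (30.6% and 33.2% of all genes). With NT, 2 were higher and 14 lower (29.7% and 32.5% of all genes). The gene that rose was Cth, which makes cysteine from cystathionine, with values of 237 and 118 for DMSO, 523 and 484 for ET-3, and 442 and 459 for NT (log2 fold change 1.58 and 1.42, adjusted p = 0.000207 and 0.000447). As with Slc7a11, the lower of its control libraries was DMSO replicate 2, and the difference between the controls ranked 9 among the 8891 genes. The transcription factor Atf3 had 338 and 230 with DMSO and 20 to 27 in the treated libraries, and the transcription factor Ddit3 had 189 and 217 and then 38 to 44. Their log2 fold changes were -3.53 and -3.49 for Atf3 and -2.26 and -2.28 for Ddit3, and the lipoprotein receptor gene Vldlr fell by 1.54 and 1.29. Atf4 itself had 861 and 969 in the controls, 973 and 930 after ET-3, and 784 and 772 after NT.

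Of 19 tested cytosolic aminoacyl-tRNA synthetases, which load amino acids on tRNA, 0 moved 2-fold by limma. Over all genes, 6.62% rose and 14.9% fell with ET-3, and 7.3% and 13.2% did so with NT. By adjusted p alone, 6 were higher and 1 lower with ET-3 (30.6% and 33.2% of all genes). With NT, 3 were higher and 8 lower (29.7% and 32.5% of all genes). The same shares over all genes stand beside the lists that follow. Of 30 tested genes of mTORC1 amino acid sensing, 2 rose and 2 fell under each peptide, while 7 were higher and 15 lower by adjusted p alone. The arginine sensor Castor1 (7 and 2 with DMSO, 16 to 20 in the treated libraries) and the Rag GTPase Rragb (25 and 21, then 61 to 78) rose. The Castor1 paralog Castor2 (647 and 667, then 250 to 319) and the Rag GTPase Rragd (1081 and 1114, then 441 to 514) fell. Of 15 tested amino acid and peptide carriers outside the 7 families, 2 rose and 3 fell under each peptide. The mitochondrial carrier for aspartate and glutamate, Slc25a13, rose by 1.09 and 1.35 on the log2 scale. The lysosomal cystine exporter Ctns fell by 1.69 and 1.49, from 197 and 207 with DMSO to between 54 and 76. The peptide carrier Slc15a1 had 20 and 29 with DMSO and 0 in every treated library, at least 6.85-fold lower with ET-3 and 9.55-fold lower with NT, and the mitochondrial carrier Slc25a29 had 19 and 30 and then 6 to 12. Slc15a1 reached the minimum mean for testing only through the DMSO libraries, and Castor1 only through the treated libraries.

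**Figure D5:**
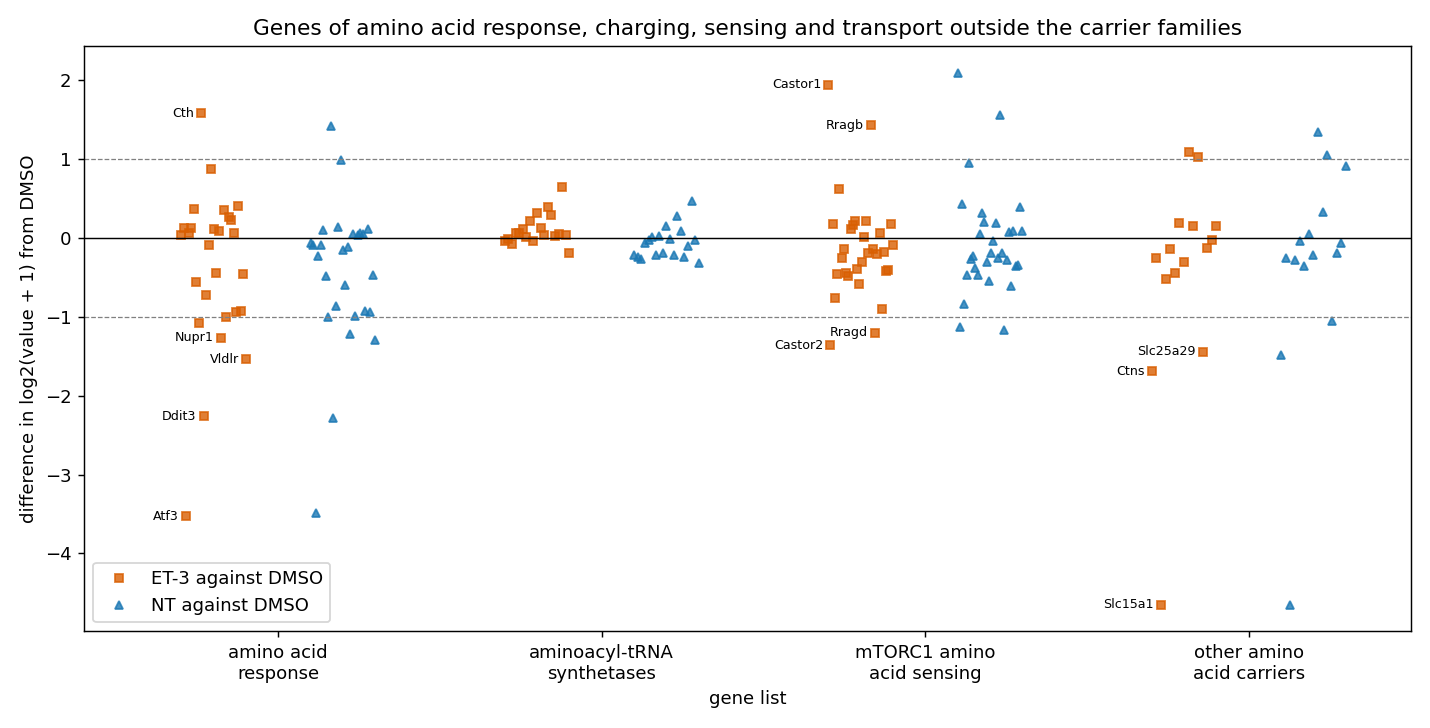
Difference in log2(value + 1) from DMSO of the tested genes of 4 lists (27, 19, 30 and 15 genes), with ET-3 and NT side by side and dashed lines at 2-fold. The aminoacyl-tRNA synthetases all lie within the dashed lines, whereas Atf3, Ddit3 and Slc15a1 lie lowest and Castor1, Cth and Rragb highest.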

How the data were processed

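Per the labels, RNA of FACS-purified MuSCs was sequenced as single-end reads on a NextSeq500, and per the submitters' processing notes the tools were Trimmomatic 0.38, STAR 2.7.7a, featureCounts 1.6.5 and DESeq2 1.30.0 with genome build mm10. The authors deposited 1 table with 6 columns of whole numbers, a scaled read signal. In 3 libraries 38, 48 and 25 whole numbers up to 299 were ones that no scaled count can give, and 0 genes lay there. Values were therefore tested with limma 3.58.1 (R 4.3.3) on log2(value + 1), with a mean-variance trend, all 6 libraries in 1 fit, genes with a mean of at least 5 and Benjamini-Hochberg adjustment. Fold changes are on this scale and understate those of low genes. The median SE of a log2 fold change was 0.10. Depth per library is given with the data, and intervals and floors cover counting error only. Exon lengths came from GENCODE by Ensembl identifier (18920 of 18943 genes). Groups followed the sample titles.

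Full values were printed for the members past both thresholds, for Slc3a2 and the light chains, and for the 3 highest members, and other genes by up to 4 of each list. The members and lists were chosen with earlier results of these data known. Values of further members and of Atf4 were added after they were seen. Alternatives were the filter, scale, pseudocount, voom weights, a replicate block, 2 groups alone, averaged treated pairs, no fold limit and each library left out. The fit was tested on simulated data. Proteins were not used here. A further list of cell type markers is not reported here.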

Additional observations from a re-analysis of the deposited data

How the results depend on the processing

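With ET-3, the 7 members that rose became 3 with treated pairs averaged and 14 with no limit on the fold, and the 3 that fell became 1 at a minimum mean of 20 and 10 with no limit on the fold. With NT, the 7 became 2 and 14 under the same alternatives, and the 3 became 1 and 11. The minimum of 20 removed Slc38a3, Slc6a13 and Slc6a19 from the test. Leaving out each library in turn gave 6 to 8 higher and 3 to 4 lower members with ET-3, and 6 to 7 and 3 to 4 with NT. Over all genes these ranges were 849 to 940 higher and 1859 to 2061 lower with ET-3, and 874 to 1031 and 1656 to 1844 with NT. All genes that rose with ET-3 were 922, and 607 at a mean of 20, 464 with treated pairs averaged and 4257 with no fold limit. Those that fell with ET-3 were 2069, and 4616 with no fold limit. With NT, 1016 rose, and 473 with treated pairs averaged and 4131 with no fold limit, whereas 1839 fell, and 4528 with no fold limit. Between NT and ET-3, 7 genes were higher and 4 lower. These became 0 and 0 with no filter, with 2 groups alone, with treated pairs averaged and with each library left out, 13 and 2 at a mean of 20, and 90 and 285 with no fold limit. The higher count was 4 at pseudocount 5, and the lower was 2 at pseudocount 0.5 and 7 with voom. The cause of these shifts was not tested.

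The replicate numbers did not pair the libraries (correlation of deviations -0.01, -0.07 and -0.02), and with the replicate block 7 members rose and 3 fell under each peptide, as without it. Between the peptides the block left 0 higher and 0 lower genes. Among single members, Slc38a4 passed 2-fold without ET-3 replicate 2 (-1.27) or without NT replicate 1 (-1.09), Slc38a6 with ET-3 without DMSO replicate 2 or ET-3 replicate 1 (-1.01 in each), Slc7a4 with ET-3 without ET-3 replicate 1 (1.07), Slc1a5 with ET-3 without DMSO replicate 1 (1.03), and Slc6a17 without DMSO replicate 2 (1.02 in each comparison). Slc7a8 was at 0.96 with ET-3 at pseudocount 5. No called member turned its direction under any alternative. The depth limits Slc38a3, Slc6a13 and Slc3a1, which rest on few reads per library.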
